A study of Mus musculus with 8 samples.

Results

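The Armcx genes and Armc10 are a small family of armadillo-repeat genes, and their 7 members in the mouse, Armcx1 to Armcx6 and Armc10, are described here in newborn cortex with and without a nonsense mutation of Phf6. Transcripts were taken as members where the gene symbol in the deposited quantification was one of these 7 names, which gave 32 of 136202 transcripts and 7 of 53392 genes. The names were chosen on read and TPM values of these same libraries, with earlier results of the comparison of genotypes in view, so every difference between genotypes below is a description of these 8 libraries and carries no test. The mutant group held 4 cortex libraries from mice with the R342X change in Phf6, and the wild-type group held 4 cortex libraries, all from postnatal day 0 mice of the FVB/N background. R342X stands for a stop codon in place of an arginine codon. The labels do not say whether each library came from its own animal, so the spread between libraries may be technical, and they name neither sex nor litter.

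Armcx proteins carry armadillo repeats, a fold that binds other proteins, and most of them sit on the outer membrane of mitochondria. Armcx3 and Armcx1 bind the adaptor complexes that tie mitochondria to motor proteins, and they are known for their part in moving mitochondria along axons. The X-linked genes are found in placental mammals only and are thought to have arisen from a reverse-transcribed copy of the autosomal Armc10, and their coding sequence has no introns. Phf6, the mutated gene, encodes a nuclear zinc-finger protein, and its loss in humans causes a form of X-linked intellectual disability.

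In the GRCm38 annotation used here (GENCODE M21), 5 members lay side by side on chromosome X within 122.7 kb, in the order Armcx4, Armcx1, Armcx6, Armcx3 and Armcx2. Armcx5 lay 934 kb further on and shared its first annotated base with Gprasp1, a gene for a relative that sorts G-protein-coupled receptors. The cluster began 81.7 Mb from Phf6 on the same chromosome. Every coding transcript of the X-linked members had its whole reading frame in 1 exon, while the frame of the main Armc10 transcript ran over 6 exons. The frames differed in length. That of Armcx4 coded for 2356 amino acids, Armcx2 for 784, Armcx5 for 606, Armcx1 for 456, Armcx3 for 379, Armc10 for 306 and Armcx6 for 301.

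The sequences shown are those of the 2 splice donors of 1 Armcx1 exon, because the genotypes differed in how much Armcx1 was assigned to transcripts that use each of them. The exon starts at position 134718920 of chromosome X (GRCm38, plus strand, 5′ untranslated region of Armcx1). It ends at 134718992 in the short form, which is 73 bases long, or at 134719108 in the long form, which is 189 bases long and so carries 116 bases more. Each line gives 15 bases of exon and the 15 bases after it, with the first 6 bases after the donor in capitals.
Armcx1 short donor, chrX:134718978-134719007: acttcccagaatcaaGTAGGTccaaggaag
Armcx1 long donor, chrX:134719094-134719123: gcaccccttctcctgGTACTGtgttggcgg
Both begin with the GT that opens nearly all introns.

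Libraries held between 30469745 and 39453169 estimated reads in mutants and between 48841467 and 74266937 in wild type, so each wild-type library was deeper. Phf6 itself was at 42.6, 39.3, 43.1 and 43.6 CPM (counts per library total, scaled by TMM) in mutant replicates 1 to 4, against 91.9, 77.8, 74.3 and 72.1 CPM in wild-type replicates 1 to 4. Markers of cortical neurons were present in all 8 libraries. The leading principal component, with 35.3% of the variance of log2 CPM, split the libraries into 2 sets that crossed genotype. Mutant replicates 1 to 3 and wild-type replicate 1 formed set 1, and mutant replicate 4 and wild-type replicates 2 to 4 formed set 2. Values within each set are given where they bear on a member. Over all 20097 genes tested, 4 differed between genotypes at an adjusted p under 0.05, all lower in mutants (edgeR quasi-likelihood test, Benjamini-Hochberg adjustment, 0.0199% of genes), and DESeq2 called 401 (2.00%). None of the 7 members was among the 4, and Armcx1 was the 1 member among the 401. At an unadjusted p under 0.05 edgeR listed 2758 genes, 3 members among them (Armcx1, Armcx3 and Armcx4).

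All 7 members were expressed in newborn cortex, from Armcx5, which ranked above 56.8% of the tested protein-coding genes, up to Armcx2, which ranked above 85.01% of them. The measure here is TPM, a level per transcript length that allows genes to be set side by side. Over the 8 libraries, Armcx2 averaged 77.7 TPM, Armc10 72.7, Armcx3 57.7, Armcx1 40.2, Armcx4 38.1, Armcx6 31.9 and Armcx5 22.5 TPM. Some neighbours in this order were apart and others were not. Armc10 was above Armcx3 and Armcx6 was above Armcx5 in 8 of 8 libraries, with ranges that did not overlap. Armcx3 was above Armcx1 in 8 of 8 libraries, but its range overlapped that of Armcx1. Armcx2 against Armc10, Armcx1 against Armcx4, and Armcx4 against Armcx6 held their order in 7 of 8 libraries each, and their ranges overlapped. Summed, the 7 genes reached 349, 339, 331 and 337 TPM in mutant replicates 1 to 4, against 352, 337, 343 and 338 TPM in wild-type replicates 1 to 4. The family total thus overlapped between genotypes, with a mean of 339 ± 7.26 TPM over mutants and 343 ± 7.13 TPM over wild type (SD of 4 libraries each).

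**Figure D1:**
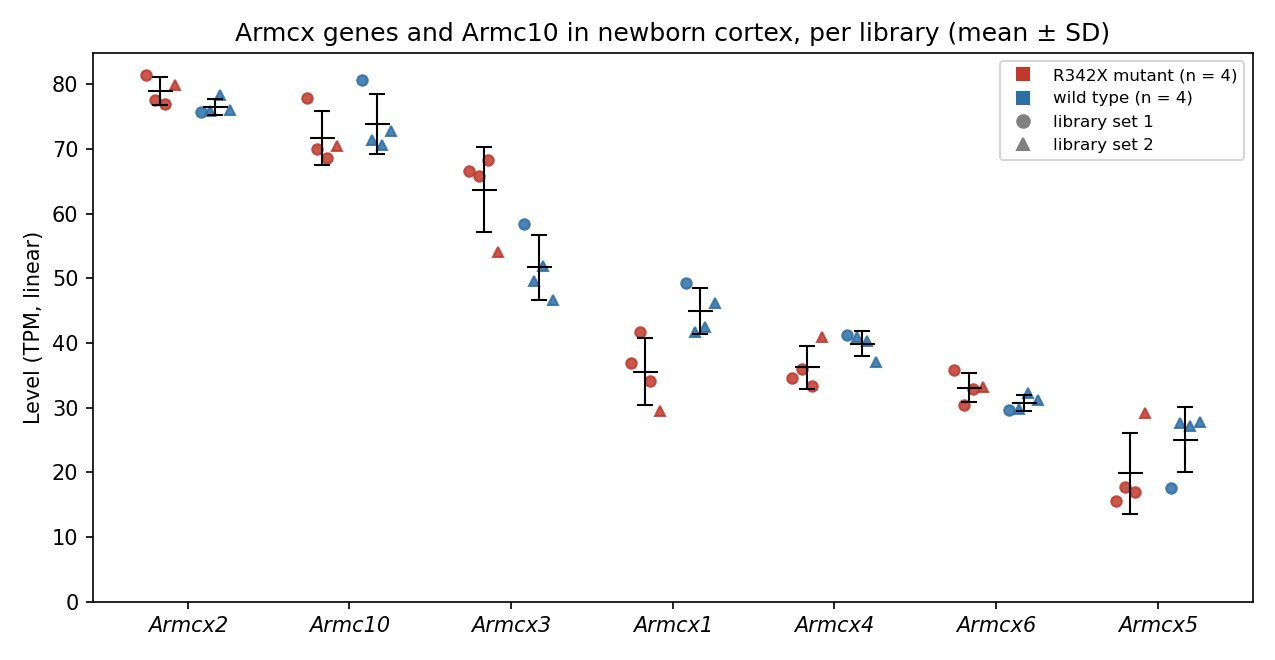
Level of each gene in TPM on a linear axis, with R342X mutant libraries to the left of wild-type libraries, 1 point per library, bars for the mean ± SD (n = 4) and the point's shape for the library set. The Armcx5 points of set 2 lie between 27.2 and 29.2 TPM in both genotypes, and those of set 1 between 15.6 and 17.7 TPM.

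Armcx1, which promotes the transport of mitochondria in axons and is known for aiding axon regrowth after injury in mice, was the 1 member whose scaled counts did not overlap between genotypes. It was at 32.9, 33.4, 32.1 and 25.5 CPM in mutant replicates 1 to 4, against 40.3, 37.4, 37.2 and 41.2 CPM in wild-type replicates 1 to 4. Every mutant library was below every wild-type library, and mutant replicate 4 was the lowest. Mutants averaged 30.97 ± 3.71 CPM and wild-type libraries 39.04 ± 2.04 CPM (SD of 4 libraries each). The mutant mean was 79.3% of the wild-type mean, and the log2 fold change was -0.33 ± 0.09 (SE). Mutants were lower in both library sets, by a log2 difference of -0.30 within set 1 and -0.60 within set 2. Of all tested genes, 6.15% had CPM that did not overlap between genotypes (3.20% with mutants lower and 2.95% with mutants higher), beside 1 of the 7 members. In TPM the genotypes of Armcx1 met at 1 pair of libraries, 41.8 in mutant replicate 2 and 41.7 in wild-type replicate 2, and no member was free of overlap, beside 5.73% of tested genes. In the authors' deposited table Armcx1 had a log2 fold change of -0.45 with a standard error of 0.09 and an adjusted p of 1.4e-05. It was the 1 member among the 417 genes (2.78%) under 0.05 there. The authors' fold changes were smaller for Armcx3 (0.11 ± 0.07, SE), Armcx4 (-0.06 ± 0.05) and Armcx5 (-0.00 ± 0.04). Those of Armcx2 (0.03 ± 0.04), Armcx6 (0.03 ± 0.05) and Armc10 (-0.05 ± 0.05) were small as well. In bulk tissue, fewer cells that express a gene and less of its RNA per cell cannot be told apart, here or for any other member.

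The transcripts of Armcx1 did not fall together. The 5 transcripts with the short form of the exon were higher in mutants as a sum. Of the 5, Armcx1-206 alone had TPM without overlap, with means of 6.91 over mutants and 1.09 over wild type. Armcx1-203, also 1 of the 5, averaged 0.995 TPM over mutants and 1.89 TPM over wild type. The 4 transcripts with the long form or with intron sequence beyond the long donor were each lower in mutants. This split was made after the transcript values were seen. Short-form transcripts summed to 21.5, 25.9, 21.8 and 16.8 TPM in mutant replicates 1 to 4, against 13.6, 11.96, 13.0 and 13.6 TPM in wild-type replicates 1 to 4. Each mutant library exceeded each wild-type library, and the mean in mutants was 1.65 times that in wild type. Long-form transcripts summed to 5.73, 1.98, 3.73 and 2.45 TPM in mutant replicates 1 to 4, against 16.1, 12.7, 12.9 and 12.7 TPM in wild-type replicates 1 to 4. The lowest wild-type library was above the highest mutant library, and the mean in mutants was 0.26 of that in wild type. Transcripts with intron sequence past the long donor averaged a sum of 8.16 ± 0.63 TPM over mutants and 18.0 ± 1.68 TPM over wild type (SD of 4 libraries each), again with no overlap. In estimated reads, the long form and the sequence past it together held 381, 181, 284 and 212 reads in mutants and 1274, 1446, 1644 and 1616 reads in wild type. Short-form transcripts held 924, 833, 878 and 645 reads in mutants and 698, 865, 1087 and 1061 reads in wild type, which overlapped. These reads are not scaled for depth, which was greater in every wild-type library, and the TPM ratio of the long form and the sequence past it was 0.37. The remaining transcript, Armcx1-207, runs past the short donor, ends inside the long form of the exon at 134719028, and was put in neither group. Unlike the long form and the sequence past it, Armcx1-207 took a larger share in mutants. It held 6.63 ± 3.98% of Armcx1 TPM over mutants and 0.68 ± 0.82% over wild type (SD of 4 libraries each), on at most 11.2 estimated reads in a library.

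**Figure D2:**
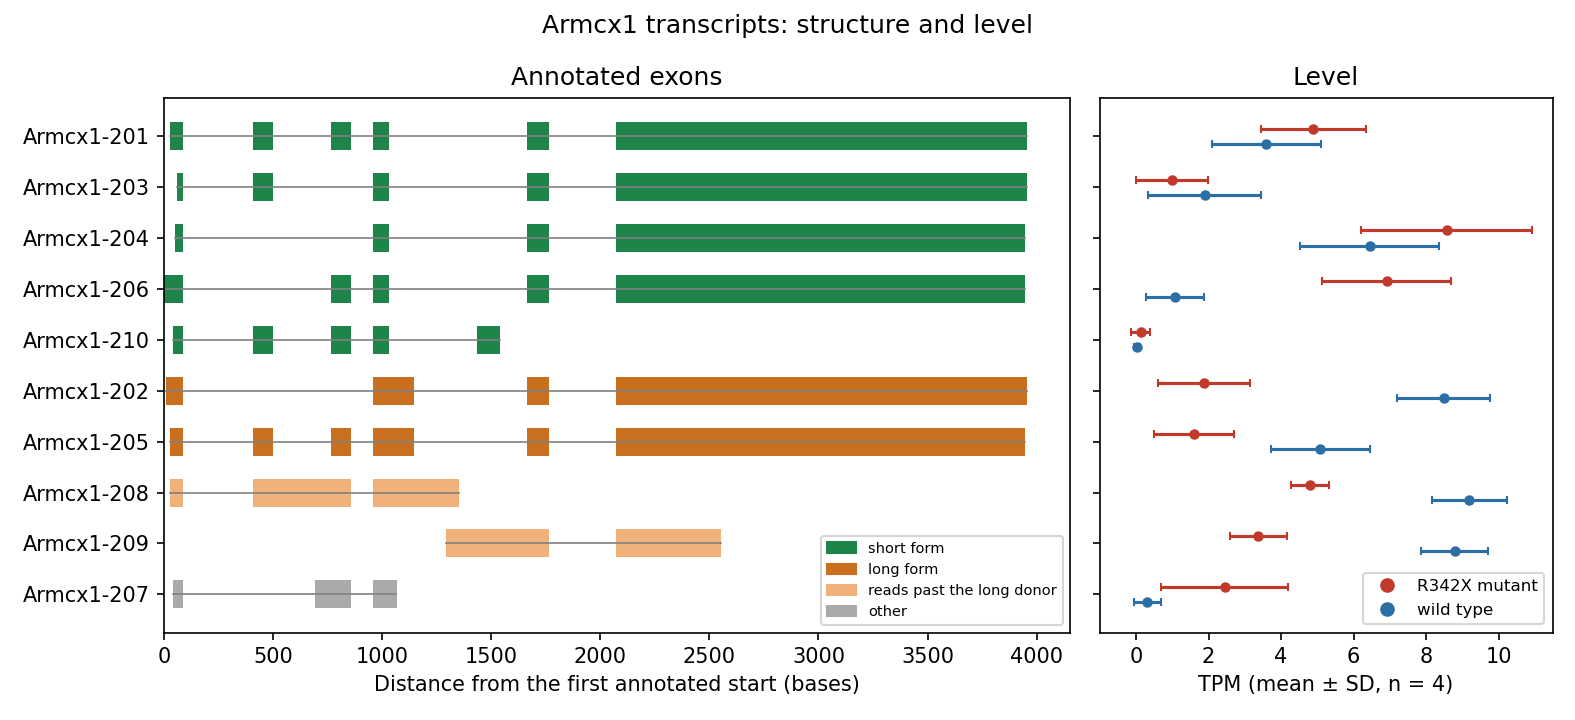
Left, annotated exons of the 10 Armcx1 transcripts, by distance in bases from the first annotated start, coloured by the form of the alternative exon. Right, the level of each transcript in TPM (mean ± SD, n = 4), with R342X mutants above wild type: Armcx1-206 averages 6.91 TPM over mutants and 1.09 TPM over wild type, and the 4 orange transcripts are lower in mutants.

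As a share of Armcx1 TPM, the long form and the sequence past it took up 36.0%, 26.4%, 34.2% and 35.8% in mutant replicates 1 to 4, against 72.4%, 71.3%, 68.3% and 68.9% in wild-type replicates 1 to 4. The 2 genotypes were far apart on this measure relative to the spread of the libraries, with means of 33.1 ± 4.55% over mutants and 70.2 ± 1.95% over wild type (SD of 4 libraries each), a difference of -37.1 points. The difference was -40.2 points within library set 1 and -33.6 points within set 2. Leaving out any 1 library kept it between -38.1 and -34.9 points, and counting estimated reads in place of TPM gave -38.0 points. With the 6 protein-coding transcripts alone it was -37.0 points. All 6 share 1 coding range, so the forms differ in the untranslated region ahead of the start codon and code for the same protein. Armcx1-208 and Armcx1-209, which hold the sequence past the long donor, use neither donor. The long form alone held 9.88 ± 4.54% of Armcx1 TPM over mutants and 30.2 ± 2.13% over wild type, a difference of -20.3 points. The short form held 60.3 ± 3.15% over mutants and 29.1 ± 1.27% over wild type, a difference of 31.2 points (SD of 4 libraries each).

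Single transcripts were less steady than the forms. Armcx1-206, which has the short form and skips 1 upstream exon, was at 8.26, 6.79, 8.15 and 4.45 TPM in mutant replicates 1 to 4, against 1.19, 1.94, 1.22 and 0.00 TPM in wild-type replicates 1 to 4. Armcx1-202, a long-form transcript, was at 3.52, 0.76, 1.01 and 2.20 TPM in mutants, against 9.54, 7.53, 9.62 and 7.23 TPM in wild type. Neither overlapped between genotypes. Armcx1-201 and Armcx1-203, both short, did overlap, as did Armcx1-204 in TPM. Salmon divides reads that fit several transcripts by a model, and these transcripts share their large last exon, so the value of 1 transcript depends on the others and its assignment error is not known from the files. Summed over the protein-coding transcripts alone, Armcx1 stood at 27.2, 27.4, 25.5 and 19.3 TPM in mutant replicates 1 to 4, against 29.7, 24.6, 25.7 and 26.3 TPM in wild-type replicates 1 to 4. The genotypes overlapped there. In net TPM the lower total of the gene in mutants lay mostly in Armcx1-208 and Armcx1-209, the 2 non-coding transcripts with intron sequence. Their sum differed by -9.82 TPM, mutant mean minus wild-type mean. The long form differed by -10.1 TPM, and the short form by 8.44 TPM in the other direction, so these 2 forms largely offset each other. Armcx1-208 and Armcx1-209 are short (906 and 951 bases), so each of their reads weighs more in TPM. In estimated reads they held 10.8 ± 1.77% of Armcx1 over mutants and 19.4 ± 0.89% over wild type (SD of 4 libraries each). The lower scaled count of the gene was not divided among transcripts. Armcx1-208 averaged 4.79 ± 0.53 TPM over mutants and 9.19 ± 1.04 TPM over wild type, and Armcx1-209 averaged 3.37 ± 0.78 TPM over mutants and 8.79 ± 0.92 TPM over wild type (SD of 4 libraries each).

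**Figure D3:**
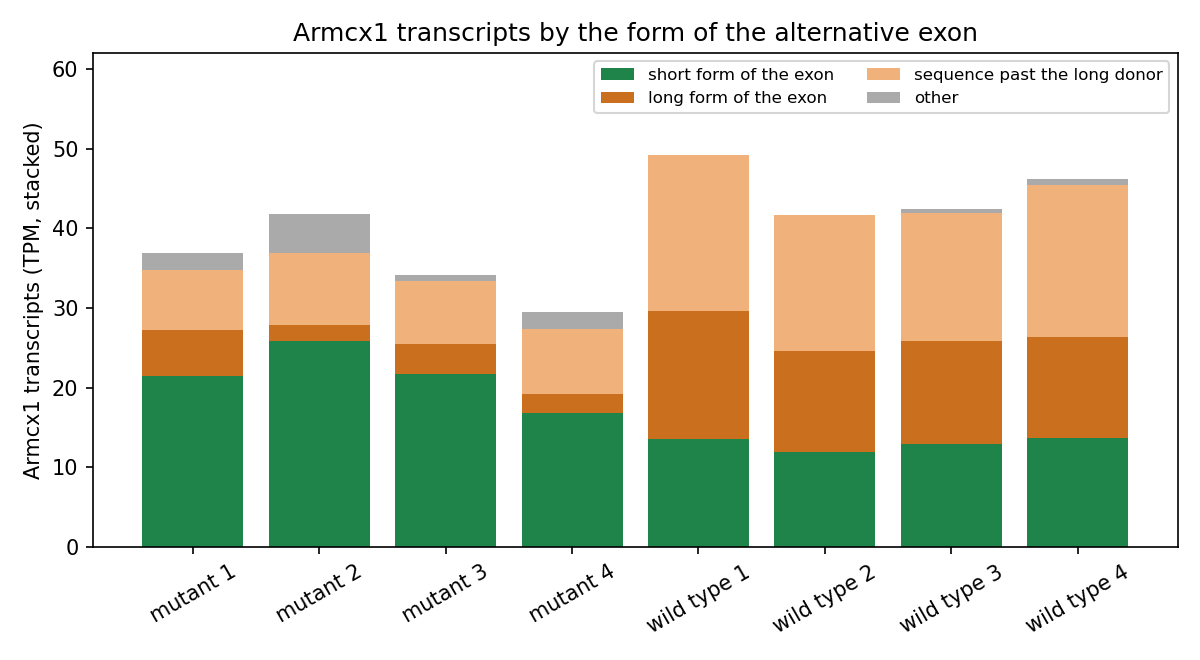
Armcx1 TPM in each library on a linear axis, stacked by the form of the alternative exon, with the 4 R342X mutants to the left of the 4 wild-type libraries. Short-form transcripts (green) make up 60.3% of Armcx1 in mutants and 29.1% in wild type, on average over 4 libraries each.

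To set these shifts beside the rest of the transcriptome, transcripts with a mean of at least 1 TPM and at least 5% of their gene's TPM were counted in all genes with several transcripts. Of 31365 such transcripts, 4.67% had TPM that did not overlap between genotypes, beside 8 of 23 member transcripts. For the share of the gene's TPM, 3.42% did not overlap, beside 8 of the 23, and shares that also differed by at least 15 points made up 0.198%, beside 1 of the 23, Armcx1-206. Of the 8 member transcripts with non-overlapping TPM, 5 belonged to Armcx1, 2 to Armcx3 and 1 to Armcx2. Nothing is read from these counts, as transcripts of 1 gene are not independent and the members were chosen with results known.

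Armcx3, the best studied member, which binds Miro proteins and Trak2 to move mitochondria in neurons, ran the other way in part. It was at 105.5, 102.9, 112.3 and 90.0 CPM in mutant replicates 1 to 4, against 92.8, 89.4, 88.7 and 86.0 CPM in wild-type replicates 1 to 4. Mutant replicate 4 fell inside the wild-type range, and the other 3 mutants were above it. The log2 fold change was 0.20 ± 0.06 (SE), with a difference of 0.20 in log2 within library set 1 and 0.03 within set 2. Its transcripts differed more than the gene. Armcx3-202, which ends earlier at its 3′ end (position 134760106), averaged 12.2 ± 1.65 TPM over mutants and 7.15 ± 1.84 TPM over wild type (SD of 4 libraries each). Its share of Armcx3 TPM was 19.2%, 20.9%, 18.0% and 18.3% in mutant replicates 1 to 4, against 16.2%, 12.2%, 14.95% and 11.4% in wild-type replicates 1 to 4. The groups did not overlap, and the means were 5.38 points apart, with 3.16 points within set 1 and 5.40 points within set 2. A processed copy, Gm9299, shares 1048 of the 3566 stretches of 31 bases in Armcx3, and it was listed at 0 TPM in 7 of 8 libraries and at 0.23 TPM in wild-type replicate 1.

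Armcx4, the longest member, was at 151, 156, 151 and 187 CPM in mutant replicates 1 to 4, against 180, 195, 188 and 181 CPM in wild-type replicates 1 to 4. As with Armcx3, mutant replicate 4 stood with wild type and apart from the other mutants. The log2 fold change was -0.21 ± 0.07 (SE), and the log2 difference was -0.24 within library set 1 and -0.00 within set 2. Only 1 Armcx4 transcript is annotated, so its level cannot be split by transcript.

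Armcx5 followed the library sets. It was at 20.8, 23.4, 23.3 and 40.5 CPM in mutant replicates 1 to 4, against 22.9, 40.3, 38.3 and 41.3 CPM in wild-type replicates 1 to 4. All 4 libraries of set 2 were at 38.3 to 41.3 CPM whatever their genotype, and all 4 of set 1 were at 20.8 to 23.4 CPM. The log2 fold change over all libraries was -0.41 ± 0.23 (SE), the largest of the 7 in size and the least precise, but within the sets the log2 difference was -0.03 and 0.02. Its retained-intron transcript held 32.1 ± 1.45% of Armcx5 TPM over mutants and 33.3 ± 2.67% over wild type (SD of 4 libraries each), so both transcripts moved in step with the sets. Armcx5 overlaps Gprasp1 on the same strand, and Gprasp1 averaged 531 ± 19.8 CPM over mutants and 518 ± 12.9 CPM over wild type (SD of 4 libraries each).

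Armcx2, Armcx6 and Armc10 differed between genotypes by no more than 1 SE of their log2 fold change when genotype was the only term. Armcx2 was at 130, 127, 131 and 134 CPM in mutant replicates 1 to 4, against 124, 132, 136 and 137 CPM in wild-type replicates 1 to 4, with a log2 fold change of -0.02 ± 0.04 (SE). Armcx6 was at 28.0, 24.5, 26.9 and 26.2 CPM in mutants, against 23.0, 25.6, 26.96 and 28.4 CPM in wild type, with a log2 fold change of 0.02 ± 0.07. Armc10, an outer-membrane protein that is a substrate of the energy sensor AMPK, was at 75.4, 66.5, 68.4 and 60.4 CPM in mutants, against 74.8, 67.8, 65.8 and 71.1 CPM in wild type, with a log2 fold change of -0.04 ± 0.07. In each of these 3 genes the mutant and wild-type libraries interleaved. With the library set as a term, Armc10 was at -0.13 ± 0.05 (SE), Armcx6 at 0.08 ± 0.07 and Armcx2 at 0.03 ± 0.04, and the difference of Armc10 was -0.10 within set 1 and -0.18 within set 2. One Armcx2 transcript, Armcx2-207, was nonetheless apart, with a mean of 8.33 ± 0.60 TPM over mutants and 10.6 ± 1.31 TPM over wild type. Its share of Armcx2 TPM was 10.6 ± 0.94% over mutants and 13.9 ± 1.76% over wild type (SD of 4 libraries each).

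**Figure D4:**
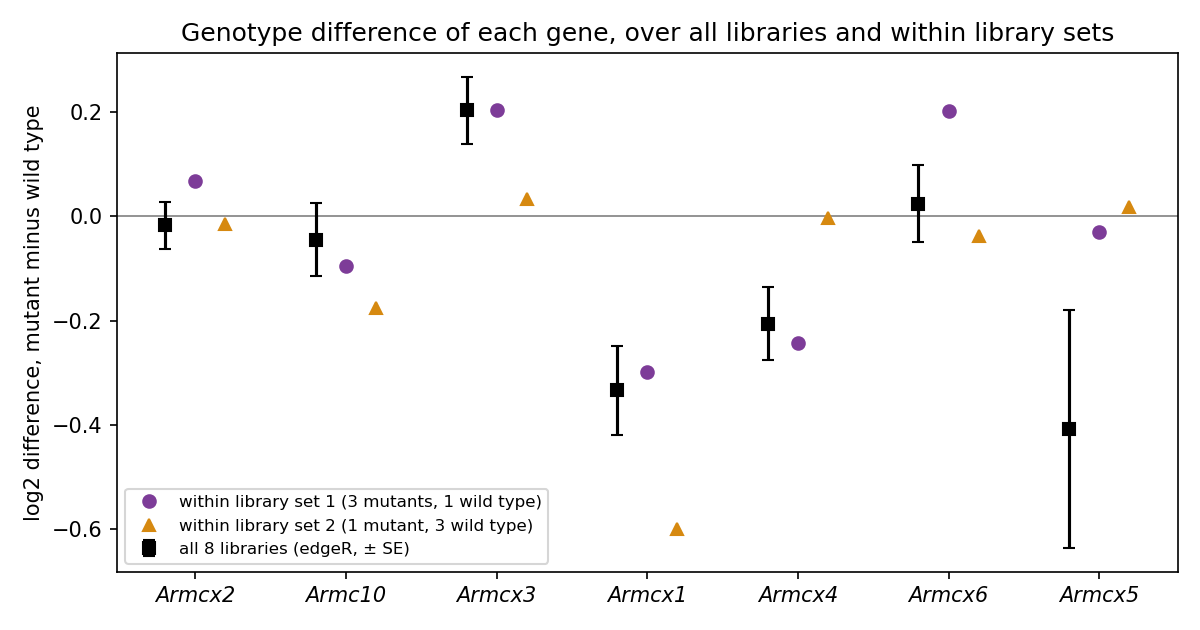
Log2 difference of each gene, mutant minus wild type, over all 8 libraries (squares, edgeR estimate ± SE), within library set 1 (circles) and within library set 2 (triangles). Armcx1 is below 0 on all 3 measures, while Armcx5 is at -0.41 over all libraries and near 0 within both sets.

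The members did not share 1 profile over the 8 libraries. In log2 CPM, Armcx3 and Armcx4 ran opposite to each other (Pearson r = -0.93), as did Armcx3 and Armcx5 (r = -0.84), while Armcx4 and Armcx5 ran together (r = 0.83), as did Armcx2 and Armcx6 (r = 0.81). These values are descriptions over 8 libraries that fall into 2 sets, and Armcx1 had r between -0.33 and 0.23 with the other Armcx genes and 0.65 with Armc10. Among 12195 protein-coding genes, the pair most like each member was Necab3 and Olfr607 for Armcx1 (r = 0.98 and 0.97), Camk2g and Psmd4 for Armcx2 (0.99 and 0.98), and Pdha1 and Eno2 for Armcx3 (both 0.99). For Armcx4 the pair was Setbp1 and Mphosph9 (both 0.98), for Armcx5 Smpd4 and Lrrc47 (0.998 and 0.995), for Armcx6 Trmt9b and Gadd45b (0.97 and 0.96), and for Armc10 Zfp781 and Zfp62 (0.98 and 0.97). The number of genes with r above 0.9 was 931 for Armcx5 and 15 for Armcx1, which shows how much more common the Armcx5 profile was.

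In the stretch of chromosome X from 500 kb before the first Armcx gene to 500 kb after the last, 25 other genes were tested and 12 had a log2 fold change above 0. None was called by edgeR, 1 had an unadjusted p under 0.05, and DESeq2 called 1. That gene was Hnrnph2, which encodes an RNA-binding protein that takes part in splicing. It was at 111, 112, 115 and 117 CPM in mutant replicates 1 to 4, against 120, 133, 126 and 128 CPM in wild-type replicates 1 to 4, so the log2 fold change came to -0.16 ± 0.04 (edgeR SE, adjusted p = 0.235). It was below wild type in every mutant library, as was Tmem35a, the other neighbour without overlap. These 2 of 25 (8%) stand beside 6.15% of all tested genes without overlap, and the 1 DESeq2 call (4%) beside 2.00%. Within 500 kb of Armc10, 12 genes were tested and neither edgeR nor DESeq2 called any, with 1 at an unadjusted p under 0.05, Dnajc2 (log2 fold change -0.10 ± 0.04, edgeR, adjusted p = 0.361).

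Of 93 tested genes in 8 lists of relatives and of mitochondrial function, neither edgeR nor DESeq2 called any in either direction, and 9 had an unadjusted p under 0.05 in edgeR (9.68%, beside 13.7% of all tested genes). The GASP relatives of the family, which share its armadillo domain, had a median log2 fold change of 0.04, beside 0.00 over all tested genes. Gprasp2 had the smallest p among the 3 relatives, with means of 119 ± 9.88 CPM over mutants and 109 ± 1.90 CPM over wild type (SD of 4 libraries each; log2 fold change 0.13 ± 0.06, edgeR, adjusted p = 0.378). Of the 22 mitochondrial transport genes, which include the Miro and Trak partners of Armcx3, 13 were above 0 and 9 below, with a median of 0.01. Snph, an anchor that halts mitochondria in axons, averaged 54.3 ± 5.37 CPM over mutants and 46.2 ± 2.40 CPM over wild type (log2 fold change 0.23 ± 0.07, edgeR, adjusted p = 0.262). Of the 18 genes of mitochondrial fusion and fission, 6 were above 0 and 12 below (median -0.02), with Mff, a receptor for the fission enzyme, at -0.12 ± 0.05 (edgeR, adjusted p = 0.350). Of the 13 genes of mitochondrial biogenesis, 7 were above 0 and 6 below (median 0.06), with the coactivator Ppargc1a averaging 20.4 ± 1.96 CPM over mutants and 16.7 ± 2.23 CPM over wild type (log2 fold change 0.29 ± 0.10, edgeR, adjusted p = 0.293).

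Of the 10 genes for import and pores of the outer membrane, 5 were above 0 and 5 below, with Tomm20 at -0.12 ± 0.06 (edgeR, adjusted p = 0.434). Its median was 0.00, the same to 2 decimals as over all tested genes. The list summed to between 1445 and 1492 TPM in mutants and between 1417 and 1438 TPM in wild type, without overlap. The sums of the other lists of relatives and of mitochondrial function overlapped. Gene by gene, 1 of the 93 list genes (1.08%) had CPM that did not overlap, beside 6.15% of all tested genes. The 7 AMPK subunits had a median of 0.06, with Prkag2 at 0.21 ± 0.09 (adjusted p = 0.352). Of 10 other Armc genes, 9 were tested, with a median of 0.02 and Armc2 at 0.41 ± 0.16 (adjusted p = 0.316). The Bex and Tceal genes, which are X-linked neighbours of the family, had 11 of 12 members tested, with a median of -0.04 and Tceal9 at -0.13 ± 0.06 (adjusted p = 0.364).

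Marker genes of other cells moved with genotype in part, and their part in the Armcx values was not tested. The 5 astrocyte markers summed to between 959 and 1105 TPM in mutants and between 744 and 901 TPM in wild type, without overlap. All 6 markers of radial glia and progenitors had log2 fold changes below 0. Their sum overlapped between genotypes, at 158 to 189 TPM in mutants and 186 to 193 TPM in wild type. All 5 of the oligodendrocyte lineage, all 5 of microglia and all 5 of choroid plexus were above 0, but these sums overlapped between genotypes. The other lists were mixed. Astrocytes, endothelial cells and pericytes, and meningeal fibroblasts each had 4 above 0 and 1 below. Cortical excitatory neurons had 3 above and 4 below, interneurons 2 and 4, and red blood cells 2 and 3. Most mutants were in library set 1 and most wild-type libraries in set 2, and the markers were not divided by set. Of the 54 markers in 10 lists edgeR called none, with 15 at an unadjusted p under 0.05 (27.8%, beside 13.7% of all tested genes). CPM did not overlap between genotypes in 9 of the 54 (16.7%, beside 6.15% of all tested genes). DESeq2 called 6 (11.1%, beside 2.00% of all tested genes), Apoe and Aqp4 of astrocytes, Nes of radial glia, and the neuronal Gad2, Neurod6 and Slc17a7.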

How the data were processed

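Messenger RNA of newborn cortex was sequenced in 8 libraries. The authors used Salmon 0.12.0 and DESeq2 with GRCm38, per the submitters' processing notes, with options not given in the sources used here. Each deposited library file lists, per the file headers, an estimated count and a TPM value by transcript. Salmon shares reads between transcripts by a model, so transcript values depend on one another. The authors' deposited table lists mean normalized counts (a signal), log2 fold changes with SE, p-values and adjusted p-values, and its model was not given.

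Gene sums of the estimated counts, rounded, were tested over all genes with edgeR 4.0.16 in R 4.3.3. The fit used filterByExpr, TMM, the quasi-likelihood F test (two-sided) and genotype alone, with Benjamini-Hochberg adjustment and a threshold of 0.05. Genes outside the filter held at most 0.086% of a library. The SE is the size of the log2 fold change over the square root of F. The fitting script was tested on simulated data. The alternatives were DESeq2 1.42.0, 2 other filters, a replicate term, a library-set term, length offsets and leaving out each library. Log2 CPM used a prior count of 2.

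The members, 8 lists (95 entries) and 10 marker lists were chosen with earlier results of these data known. All members and Phf6 were named, and from each list or neighbourhood the called genes or else the gene with the smallest p, with the 2 most like genes per member. The Armcx1 forms and other single transcripts were picked after their values were seen. Same-numbered libraries were not treated as pairs.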

Additional observations from a re-analysis of the deposited data

Results flagged for a closer look

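Among 22 sets of 4 libraries examined, 4 had 1 library whose gap to its nearest neighbour was too large a part of the whole range by Dixon's test at the 95% level, and chance flags about 1 in 20. Armcx5 was at 29.2 TPM in mutant replicate 4, above the other 3 mutants at 15.6 to 17.7 TPM, with a gap of 0.85 of the range. Armcx5 was also at 17.5 TPM in wild-type replicate 1, below the other 3 wild-type libraries at 27.2 to 27.7 TPM, with a gap of 0.95 of the range. Both values lie with the libraries of their own library set. Armcx3 was at 54.1 TPM in mutant replicate 4, below the other 3 mutants at 65.9 to 68.3 TPM, with a gap of 0.83 of the range. Armcx2 was at 78.4 TPM in wild-type replicate 3, above the other 3 at 75.7 to 76.1 TPM, a small difference in absolute terms.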

How the results depend on the processing

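The count of genes called moved with the fit. It was 4 in the fit reported, 401 with DESeq2, 13 with no filter on low counts, 121 with the library set as a term, and between 3 and 699 when 1 library was left out (699 without mutant replicate 4, 14 without wild-type replicate 1). Of the 7 members, none was called by the fit reported. Armcx1 was the 1 called by DESeq2 and the 1 called with the library set as a term (log2 fold change -0.44, 0.602% of genes called). Leaving out 1 library gave between 0 and 3, the 3 being Armcx1, Armcx3 and Armcx4 without mutant replicate 4 (3.37% of genes called). Without that library 2 list genes were called, Snph and Prkag2, and leaving out 1 library gave between 0 and 2. The cause was not tested.

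With the replicate number as a block, 20 genes and no member were called. Same-numbered libraries had deviations from their group mean correlated at 0.24, -0.03, -0.09 and 0.32. Mutant replicates 1 and 4 correlated best with the wild-type library of the same number, and mutant replicates 2 and 3 with wild-type replicate 1. These deviations also carry the split into library sets, so they cannot decide whether the numbers pair the libraries.

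The log2 fold change of Armcx1 ran from -0.37 to -0.25 when 1 library was left out, that of Armcx3 from 0.16 to 0.26, of Armcx4 from -0.28 to -0.17 and of Armcx5 from -0.67 to -0.30. With the library set as a term Armcx3 was at 0.12 in place of 0.20, and Armcx4 at -0.12 in place of -0.21. In that fit Armcx5 was at -0.00, and Armc10 at -0.13 in place of -0.04. Armcx6 was at 0.08 in place of 0.02, and Armcx2 at 0.03 in place of -0.02. The order of levels was kept without any 1 library, while counting protein-coding transcripts alone put Armcx4 (38.1 TPM) above Armcx1 (25.7 TPM). On that count Armc10 (58.9 TPM) and Armcx3 (57.7 TPM) were close, and Armcx3 was the higher in mutant replicates 2, 3 and 4. In scaled CPM per kb of transcript length the order of means was kept. There the ranges of Armc10 (lowest 38.3) and Armcx3 (highest 39.0) overlapped, as did those of Armcx6 (lowest 16.3) and Armcx5 (highest 17.0). The Armcx3-202 share differed by 4.63 to 6.21 points without 1 library and by 3.16 points within library set 1. Transcripts with few reads, as Armcx1-206 with 0 to 145 estimated reads in wild type, are limited by depth.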

Other observations

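The starts of Armcx1 and Armcx6 held the same pair of short motifs at the same spacing. Windows of 50 bases (40 before to 10 after the start) are shown from RefSeq promoters of GRCm38.p6, because 6 of the 7 members matched an entry and these 2 share the arrangement, with matches to TGACGT (part of a cAMP response element) and CACGTG (an E-box) in capitals.
Armcx1, chrX:134717898-134717947, plus strand: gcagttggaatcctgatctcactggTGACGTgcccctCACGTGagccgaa
Armcx6, chrX:134751410-134751459, minus strand: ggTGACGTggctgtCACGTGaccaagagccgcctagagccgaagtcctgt
The motifs were picked after the sequences were read. In promoter entries of 300 bases, searched on both strands, CACGTG occurred in 7.15% of 32851 promoters and in 3 of the 6 members, and TGACGT in 7.51% and in 3 of the 6. Both together occurred in 0.770%, and TGACGT with CACGTG after a gap of 6 bases occurred in 8 promoters (0.0244%), Armcx1 and Armcx6 among them. Over the 8 libraries the log2 CPM of these 2 genes had r = -0.12, a description of libraries that share 2 sets. A match is a string of letters and not evidence of binding.

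Processed copies of other members were low. Gm8878, which shares 461 stretches of 31 bases with Armcx5, was listed at 0 TPM in all 8 libraries, and Gm16397, which shares 396 with Armcx6, was at 0.27 to 0.92 TPM in mutants and 0 to 1.88 TPM in wild type.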
